A study of Homo sapiens with 8 samples.

Results

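IGF2, H19, CDKN1C, PHLDA2 and KCNQ1OT1, 5 genes of the imprinted cluster on the short arm of chromosome 11, were followed by gene name among the 30386 genes of a table of RNA-seq read counts. The table sets endothelial cells, labelled iEC, against retinal endothelial cells, labelled iREC. Both were made from WTC-TJP1, an established line of human induced pluripotent stem cells, and were collected at passage 1. The labels give 4 libraries per group, named C, D, E and F in each, with no other treatment and no genotype difference between the groups. All libraries come from a single line, so the values describe that line, and the labels do not say whether the libraries came from separate differentiations. The spread between them may therefore be technical, and p-values measure only that spread. The 5 genes were chosen with the difference between iREC and iEC in view, so their own differences are given as a description with no test. All 5 passed the filter on low counts.

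An imprinted gene is read mainly from the chromosome inherited from 1 parent. At this cluster a differentially methylated region upstream of H19 binds CTCF on the maternal chromosome, where H19 is read and IGF2 is silent; on the paternal chromosome the reverse holds. A separate control region at the start of KCNQ1OT1 governs the other side of the cluster: the long RNA KCNQ1OT1 is read from the paternal chromosome, and CDKN1C and PHLDA2 from the maternal one. IGF2 is a secreted growth factor of fetal life, H19 is an abundant non-coding RNA of embryonic tissue, CDKN1C is the cyclin-dependent kinase inhibitor p57, and PHLDA2 is a pleckstrin homology domain protein that limits placental growth. The counts do not separate the parental copies.

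Along chromosome 11 (GRCh38) the genes lie in the order H19 (ENSG00000130600, 1995176 to 2001470), IGF2 (ENSG00000167244, 2129112 to 2149603), KCNQ1OT1 (ENSG00000269821, 2608328 to 2699994), CDKN1C (ENSG00000129757, 2883213 to 2885773) and PHLDA2 (ENSG00000181649, 2928273 to 2929455), all on the minus strand. H19 and IGF2 are 128 kb apart, IGF2 and KCNQ1OT1 459 kb, KCNQ1OT1 and CDKN1C 183 kb, and CDKN1C and PHLDA2 42.5 kb. RefSeq (GRCh38.p14) gave a promoter for 1 of the 5 genes, H19, the most abundant of them per length in every iREC library. It covers chr11:2001217-2001516, from 250 bases before to 50 after a start at 2001266, which differs from the end of the gene in the table. It is shown because H19 is silenced by DNA methylation on the paternal chromosome. Which start the H19 RNA has in these cells was not tested, so this stretch may not be its main promoter. Capitals mark CG dinucleotides, the letters that this methylation uses.
H19 promoter: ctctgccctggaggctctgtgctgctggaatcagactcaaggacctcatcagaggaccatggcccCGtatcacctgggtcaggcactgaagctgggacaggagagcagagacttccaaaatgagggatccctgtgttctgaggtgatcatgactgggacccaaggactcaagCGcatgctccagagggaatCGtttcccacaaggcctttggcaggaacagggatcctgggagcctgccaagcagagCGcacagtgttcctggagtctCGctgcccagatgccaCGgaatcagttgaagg

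This RefSeq promoter of H19 held 6 CG dinucleotides, against a median of 14 over 35116 promoters of the same length. Of those promoters, 36.8% held as many or fewer. Its GC content was 57.7%, beside a median of 58.7%. On both strands it held neither TATAAA, present in 11.5% of all promoters, nor GGGCGG, present in 45.0%. Methylation was not measured in these samples.

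A further pair of sequences belongs to the transcript itself, since H19 is also the precursor of a microRNA. All 73 bases of the MIR675 hairpin lie in an exon of H19. Poly-A selected libraries do not measure the mature forms, and MIR675 was not analysed here as a gene of its own. The mature forms are shown with the seed, bases 2 to 8 from the 5′ end, in capitals.
hsa-miR-675-5p: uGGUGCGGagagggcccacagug
hsa-miR-675-3p: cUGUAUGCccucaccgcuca

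The seeds of the 2 arms differ. Among 2370 mature human miRNAs of RefSeq, the seed of the 5p arm occurs in 2 and that of the 3p arm in 1, counting each arm itself.

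The iEC libraries held 14877502 to 16971865 counts and the iREC libraries 13739364 to 15987839. Both groups carried endothelial RNA: 8 of 8 endothelial markers exceeded 3 counts in each, with a summed level of 5841 to 7750 CPM (the count as a share of its library, times 1000000, with libraries scaled by TMM, which corrects for a few dominant genes) in iEC and 3871 to 8685 CPM in iREC. Within the endothelial list edgeR called PECAM1 and CDH5 lower (means 2233 to 754 and 1351 to 799 CPM, adjusted p = 0.000632 and 0.0298). EMCN and TEK were called higher (means 4.21 to 432 and 58.9 to 833 CPM, edgeR adjusted p = 4.11e-05 and 0.000110). None of these genes overlapped between the groups. Markers of other cell types were also present, and their lists did not all move the same way. Of 10 mural and mesenchymal markers, 9 exceeded 3 counts in iEC and 10 in iREC. Their sum was 248 to 509 CPM in iEC and 1314 to 5679 CPM in iREC. In that list edgeR called TAGLN, POSTN and LUM higher (log2 difference 4.16, 5.99 and 5.80, adjusted p = 0.000147, 0.00132 and 0.0333), LUM with overlapping groups. RGS5, a pericyte gene of the list, was called lower (log2 difference -1.40, adjusted p = 0.0210 by edgeR). The cardiac and skeletal muscle list summed to 0.237 to 1.20 CPM in iEC, and to 17.5 to 265 CPM in iREC. Nearly all of the iREC sum was ACTC1, a muscle actin (21.9, 83.6, 17.0 and 263 CPM in C, D, E and F). TNNT2 was at 0 in every library except iREC F (0.720 CPM), MYH6 was at 0 in all 4 iREC libraries, and NKX2-5 and MYOG stayed under 1 CPM in every library. The blood sum was lower in iREC without overlap and was mostly RUNX1 (log2 difference -0.97, adjusted p = 0.0131 by edgeR). PTPRC of that list had 0 counts in iEC and was called higher (0.794 to 2.75 CPM in iREC, adjusted p = 0.00243 by edgeR). The hepatic, epithelial and retinal sums overlapped between the groups. In the hepatic list edgeR called TTR, near 0 in iEC, higher (log2 difference 9.49, adjusted p = 9.64e-05) and APOB lower (-2.39, adjusted p = 0.00809). In the epithelial list edgeR called KRT7 higher (log2 difference 5.05, adjusted p = 0.0258), with overlapping groups. Library iREC F stood apart, with the highest mural, muscle and epithelial (4924 CPM against 302 to 1117 CPM in the other iREC libraries) sums and the lowest endothelial sum. It also had the highest pluripotent sum (505 CPM), of which LIN28A made up 482 CPM; POU5F1, NANOG and SOX2 were at or under 1.16 CPM in every library, and DPPA4 was called lower in iREC (log2 difference -0.86, adjusted p = 0.0166 by edgeR). In these bulk samples, a change in the share of cells of a type and a change in RNA per cell cannot be told apart.

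IGF2 was close to absent from iEC and abundant in iREC. It had 2, 8, 1 and 5 counts in iEC C, D, E and F, and 1157, 3854, 6204 and 3259 counts in iREC C, D, E and F. On the CPM scale the means were 0.263 ± 0.206 (SD, n = 4) and 236 ± 127 (SD, n = 4). The lowest iREC library, C, was 150-fold above the highest iEC library, D, so the groups lay far apart. The ratio of summed counts per scaled library was 921, with a 95% interval of 567 to 1613 (exact Clopper-Pearson, conditional on the total). That interval covers counting error only and rests on 16 counts in iEC. The fitted log2 fold change, iREC minus iEC and called the log2 difference from here on, was 9.79 ± 0.70 (SE).

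H19 was detected in every library of both groups. It had 37, 234, 37 and 114 counts in iEC C, D, E and F, and 5706, 12720, 17850 and 11223 counts in iREC. The CPM means were 6.89 ± 5.95 (SD, n = 4) in iEC and 777 ± 305 (SD, n = 4) in iREC, a 113-fold difference. The lowest iREC library was 25.2-fold above the highest iEC library. The log2 difference was 6.82 ± 0.72 (SE). It was 7.51 without iEC D, the iEC library with the most H19. Within each group H19 varied widely, 6.75-fold in iEC and 2.92-fold in iREC from the lowest to the highest library.

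IGF2 and H19 took the same order over the iREC libraries, with C lowest, then F, D and E. In iEC, D was highest and F next for both, while C and E were the lowest pair. The library richest in both RNAs, iREC E, had the highest endothelial sum (8685 CPM) and the lowest mural and mesenchymal (1314 CPM) sum and the least ACTC1 (17.0 CPM) of the iREC libraries. iREC F, with the most of both, was above only iREC C for IGF2 and H19. That library, iREC C, had the lowest epithelial (302 CPM) and pluripotent (53.3 CPM) sums of the iREC libraries. It also had the least COL3A1 (32.5 CPM) and LUM (1.96 CPM) of the mural and mesenchymal list. The sum of that list in iREC C (1508 CPM) was above that in iREC E, as were its ACTA2 and TAGLN. The trophoblast sum was 182 CPM in both iREC C and iREC E. Without iREC F the log2 difference of IGF2 was 9.83 and that of H19 6.84. The part of other cell types in the IGF2 and H19 differences was not tested.

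**Figure D1:**
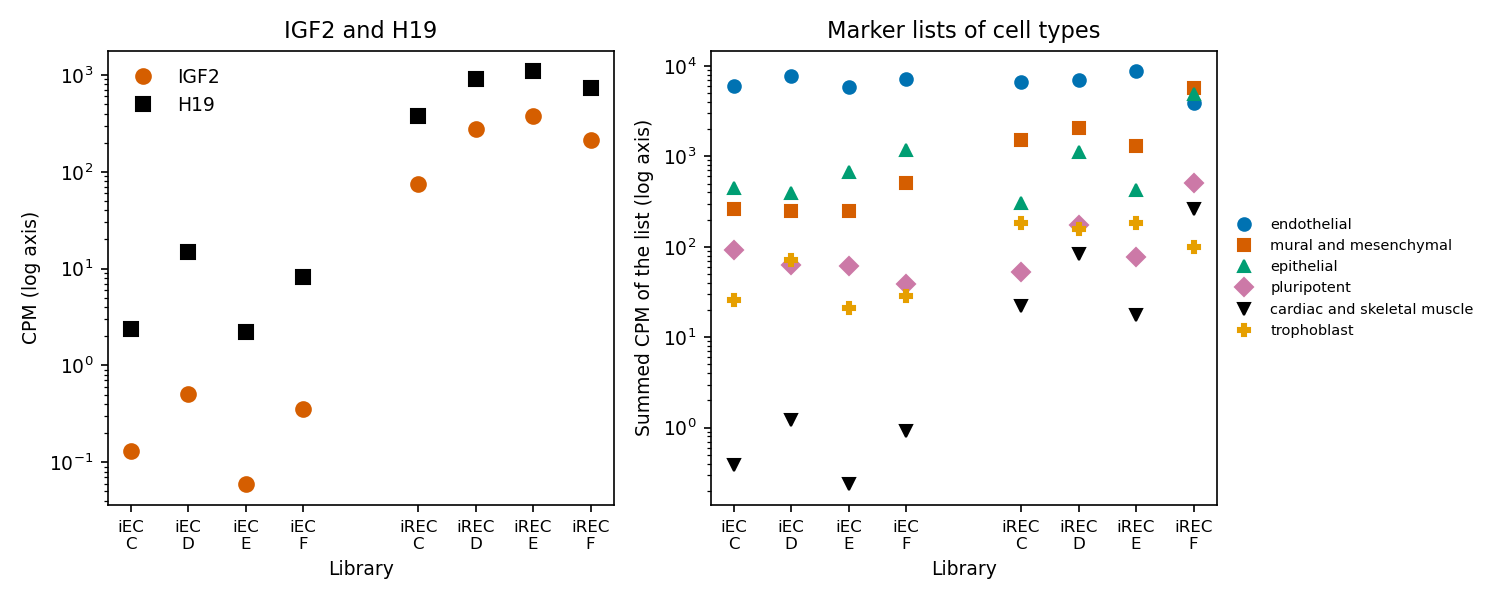
Left, CPM of IGF2 and H19 in each of the 8 libraries; right, summed CPM of 6 lists of cell type markers in the same libraries, both on log axes, 1 point per library. IGF2 and H19 are highest in iREC E. The mural and mesenchymal, epithelial, pluripotent and muscle sums are highest in iREC F. The last 2 sums are almost wholly LIN28A (482 CPM) and ACTC1 (263 CPM) there. Among the iREC libraries, IGF2, H19 and the epithelial and pluripotent sums are lowest in iREC C.

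CDKN1C, which holds cyclin-dependent kinases inactive in cells that leave the cell cycle, was higher in iREC. It had 63, 80, 43 and 55 counts in iEC C, D, E and F, and 198, 360, 354 and 360 counts in iREC. The CPM means were 3.91 ± 1.03 (SD, n = 4) and 21.0 ± 5.59 (SD, n = 4), a 5.36-fold difference, and the log2 difference was 2.42 ± 0.29 (SE). Every iREC library lay above every iEC library, the nearest pair being 2.56-fold apart. Like IGF2 and H19, CDKN1C was lowest in C among the iREC libraries, but D and not E was highest. Its relative spread was similar in both groups, with a coefficient of variation of 26.5% in iEC and 26.7% in iREC.

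PHLDA2, the immediate neighbour of CDKN1C among the 5, went the other way. It had 1012, 924, 1553 and 1166 counts in iEC C, D, E and F, and 194, 412, 198 and 349 counts in iREC. The CPM means were 74.9 ± 15.5 (SD, n = 4) in iEC and 19.3 ± 8.37 (SD, n = 4) in iREC, 3.89-fold higher in iEC. The log2 difference was -1.96 ± 0.30 (SE). The groups did not overlap, and the nearest libraries, iEC D and iREC D, were 1.99-fold apart. Within iREC, PHLDA2 was lowest in E and C and highest in D. Of the trophoblast markers, for the placental cells in which PHLDA2 is best known, CGA stayed at or under 0.642 CPM in every library. VTCN1 stayed at or under 0.122 CPM. The list's sum was 21.3 to 70.5 CPM in iEC and 98.4 to 182 CPM in iREC. That sum was mostly GATA3 (20.1 to 69.9 and 77.6 to 181 CPM), which other cell types also express. GATA3 and TFAP2A, the only tested markers of the list, were called higher (log2 difference 1.97 and 4.15, adjusted p = 0.00848 and 0.0130 by edgeR). TFAP2A overlapped between the groups. Its level in iREC C was 0.589 CPM, within the iEC range of 0.130 to 1.29 CPM, while the other iREC libraries held 13.9 to 21.8 CPM.

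KCNQ1OT1, the long antisense RNA that silences neighbours on its own chromosome, overlapped between the groups. It had 108, 89, 122 and 26 counts in iEC C, D, E and F, and 146, 147, 307 and 89 counts in iREC. The CPM means were 5.43 ± 2.48 (SD, n = 4) and 11.2 ± 5.45 (SD, n = 4), and the log2 difference was 1.04 ± 0.46 (SE). Library F was lowest and library E highest in each group, and iREC F (5.83 CPM) fell among the iEC libraries. Without iREC F the log2 difference was 1.25.

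Thus 4 of the 5 genes did not overlap between groups in CPM, 3 higher in iREC and 1 lower; over all 15330 tested genes the shares without overlap were 29.1% in either direction, 14.5% higher and 14.6% lower. Their median log2 difference was 2.42, beside 0.02 over all tested genes. Since the genes were chosen on this contrast, nothing is read from that count or that median.

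**Figure D2:**
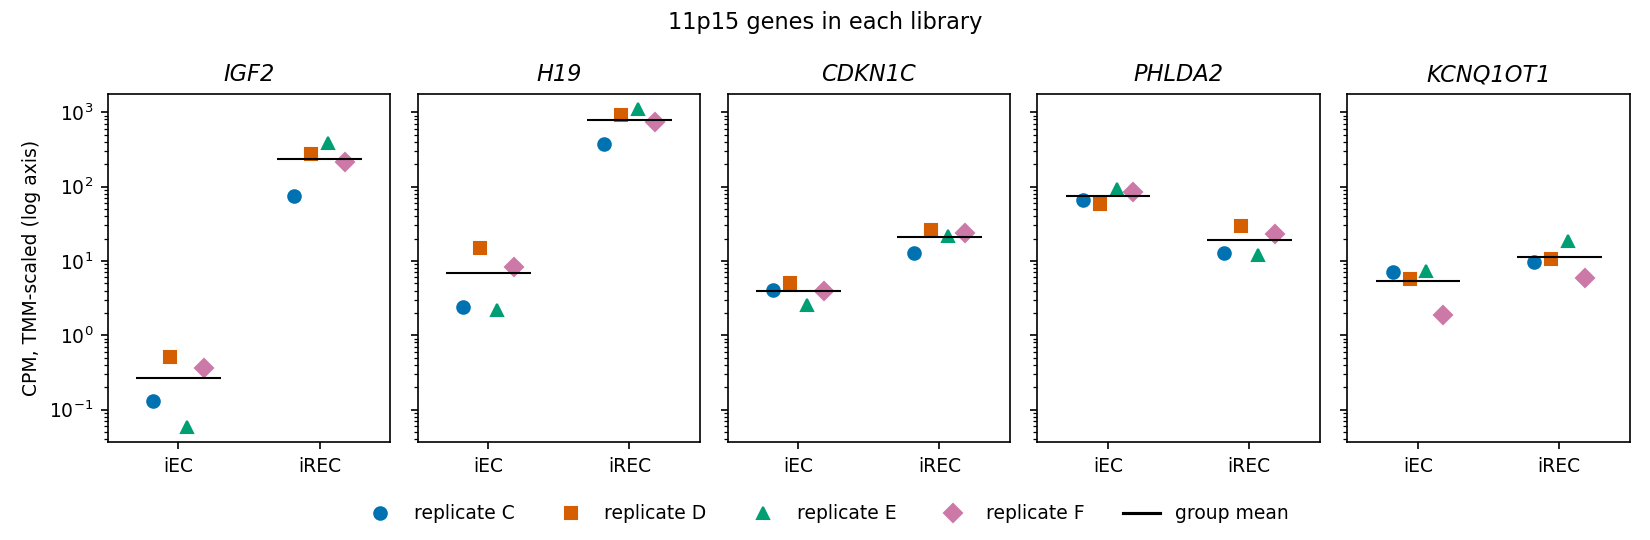
CPM of the 5 genes on a log axis, 1 panel per gene, with 1 point per library (4 iEC and 4 iREC, marked by replicate letter) and a line at each group mean. IGF2, H19 and CDKN1C lie higher in iREC, PHLDA2 lies lower, and the KCNQ1OT1 points of the groups overlap.

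Levels were compared between genes only per length, on the deposited FPKM scale. PHLDA2 led in every iEC library, with a mean of 78.0 ± 17.0 FPKM (SD, n = 4). Below it came H19 at 2.36 ± 2.02 and CDKN1C at 1.56 ± 0.408, whose order changed from library to library. KCNQ1OT1 at 0.0584 ± 0.0262 and IGF2 at 0.0376 ± 0.0293 were lowest, and their order also changed.

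In iREC the order was different. H19 led in all 4 libraries with 263 ± 103 FPKM (SD, n = 4), and ranked between 46 and 246 among the 22920 to 25817 genes above 0. IGF2 followed at 33.2 ± 17.7 FPKM, PHLDA2 at 19.8 ± 8.62, CDKN1C at 8.31 ± 2.22 and KCNQ1OT1 at 0.119 ± 0.0577. IGF2 exceeded PHLDA2 in D, E and F but not in C, where IGF2 was 10.7 FPKM and PHLDA2 13.1 FPKM, so that pair did not differ beyond its spread. H19 exceeded IGF2 by 11.9-, 7.95-, 6.93- and 8.30-fold in iREC C, D, E and F. The ratio of PHLDA2 to CDKN1C, which share a control region, was 30.0 to 93.7 in iEC and 1.45 to 2.97 in iREC. The 5 genes summed to 0.00819% to 0.0103% of an iEC library and 0.0476% to 0.156% of an iREC library.

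**Figure D3:**
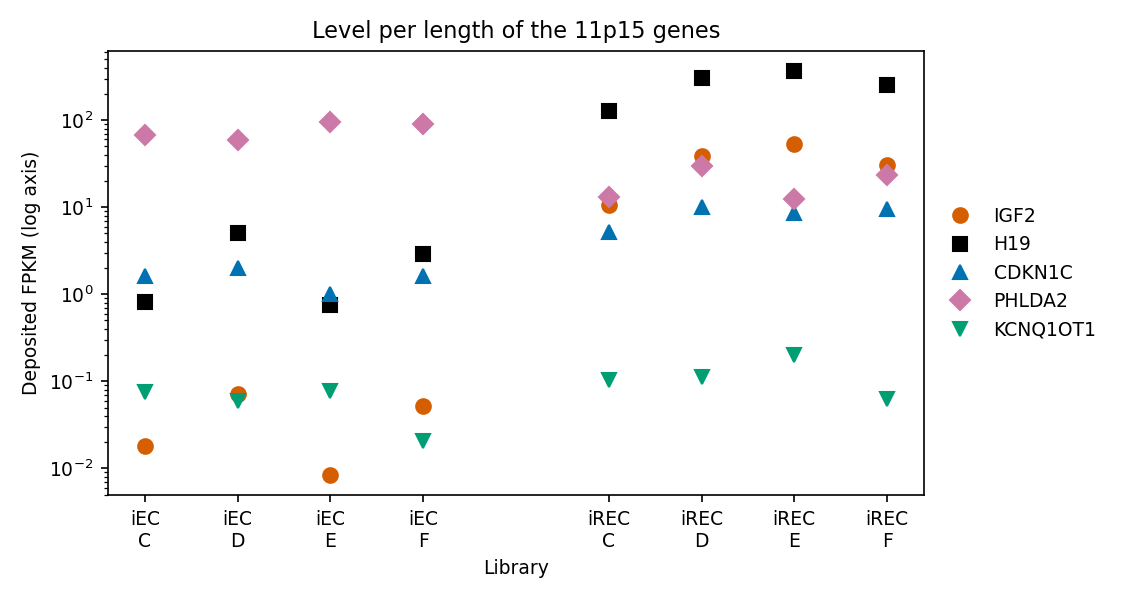
Deposited FPKM of the 5 genes in each of the 8 libraries on a log axis, 1 point per gene and library. PHLDA2 is the highest of the 5 in all 4 iEC libraries and H19 the highest in all 4 iREC libraries.

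Overlapping annotation limits what the count of a gene means. By GENCODE release 29, 25.0% of the 6979 exon bases of IGF2 belong to no other gene, and 73.7% are shared with genes on the same strand, among them a further gene model named IGF2 (5144 bases) and the read-through INS-IGF2 (1460 bases), neither analysed here. How the authors' counting divided such reads is not given in the sources used here, so the absolute level of IGF2 is uncertain. IGF2-AS on the opposite strand shares 333 bases with IGF2, and reads there cannot be told apart unless counting used the strand, which the sources used here do not give. KCNQ1OT1 lies antisense inside KCNQ1, but only 121 of its 91667 exon bases are exonic in KCNQ1. H19 had 92.6% of its exon bases to itself, and CDKN1C and PHLDA2 all of theirs.

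The other genes of the region, taken by position alone, were tested next. Of 67 other genes starting between 1000000 bases below H19 and 1000000 bases above PHLDA2, 28 were tested; edgeR's quasi-likelihood test called 4 higher and 4 lower in iREC (Benjamini-Hochberg adjusted p under 0.05). That is 28.6%, near the 25.0% called over all tested genes (13.2% higher and 11.7% lower), with a median log2 difference of -0.16. The count fell to 4 without iREC D or iREC E, and to 5 without iEC D, iEC E or iREC C. Genes called higher numbered 2 without iEC C, iEC E, iREC D or iREC E, and genes called lower 2 without iEC D, iREC C, iREC D or iREC E. FAM99A, not tested with all libraries, was among the genes called higher without iEC C or iEC E (edgeR adjusted p = 0.0428 and 0.0441). It was also called higher without iEC D, iEC F or iREC C (0.00825, 0.0369 and 0.0132). AC068580.3 and MUC6 were called higher without iREC F (0.0240 and 0.0407). FAM99A, AC068580.3 and MUC6 were named after their values were seen. Between KCNQ1OT1 and PHLDA2, SLC22A18 and SLC22A18AS were tested and 0 of 2 were called by edgeR, DESeq2 or limma-voom, and 0 had an unadjusted p under 0.05. SLC22A18 was at 2.18 ± 1.44 CPM in iEC and 2.33 ± 1.89 CPM in iREC (SD, n = 4). KCNQ1, the potassium channel gene that contains KCNQ1OT1, was at 1.03 ± 0.609 and 0.467 ± 0.433 CPM (SD, n = 4; edgeR adjusted p = 0.349).

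Counts of IGF2-AS, annotated antisense to IGF2, were higher in iREC. Of its 2869 exon bases, 333 lie in exons of IGF2, and the part of IGF2 reads in its counts was not tested. IGF2-AS had 0 counts in each iEC library and 13, 78, 93 and 93 in iREC C, D, E and F. Its iREC mean of 4.55 ± 2.47 CPM (SD, n = 4) was at least 21.2-fold higher, taking the largest per-library value of 3 counts as the iEC level, and edgeR's adjusted p was 0.00292. MIR483, which lies in an intron of IGF2, likewise had 0 counts in iEC and 9, 11, 34 and 5 in iREC, too few to be tested. Both lie within the span of IGF2, and both were at 0 in the 4 iEC libraries and above 0 in the 4 iREC libraries.

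Farther out, CARS, a cysteinyl-tRNA synthetase gene beyond PHLDA2, fell from 91.4 ± 9.01 to 53.8 ± 5.61 CPM (SD, n = 4; log2 difference -0.76 ± 0.12 SE, adjusted p = 0.00195 by edgeR). BRSK2, a kinase gene below H19, fell from 2.36 ± 0.804 to 0.658 ± 0.122 CPM (SD, n = 4; log2 difference -1.84 ± 0.37 SE, adjusted p = 0.00685 by edgeR). CTSD, the lysosomal protease cathepsin D, rose from 64.8 ± 23.8 to 157.5 ± 55.2 CPM, though the groups overlapped (edgeR adjusted p = 0.0156). Its call was lost without iEC C or iEC E (edgeR adjusted p = 0.0505 and 0.0554). RHOG, a small GTPase gene, fell from 83.6 ± 12.6 to 59.5 ± 4.83 CPM (edgeR adjusted p = 0.0258), and it was not called without iEC D, iREC C, iREC D or iREC E (edgeR adjusted p = 0.0641, 0.0534, 0.0799 and 0.0695). AC090587.1 went from 0.428 ± 0.178 to 1.08 ± 0.165 CPM (edgeR adjusted p = 0.0374), and it was not called when any single library except iEC F was left out (highest edgeR adjusted p = 0.101).

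Of 19 genes listed as imprinted or read through from the cluster, 9 were tested and edgeR called 2 higher and 1 lower, 33.3% beside 25.0% of all tested genes (13.2% higher and 11.7% lower). Besides IGF2-AS these were OSBPL5, a lipid transfer gene next to the cluster (16.9 ± 2.97 to 25.1 ± 2.21 CPM, SD, n = 4; edgeR adjusted p = 0.0288), and CD81, a tetraspanin (389 ± 49.2 to 299 ± 10.4 CPM; edgeR adjusted p = 0.0446). The OSBPL5 call was lost without any 1 of iEC C, D or E or iREC C, D or E (edgeR adjusted p up to 0.0929), and the CD81 call without any 1 library except iEC C (up to 0.117). The list count was 1, IGF2-AS alone, without iEC D, iEC E, iREC D or iREC E. TSSC4, NAP1L4 and ZNF215 were not called by edgeR; NAP1L4 was at 209 ± 11.6 CPM in iEC and 174 ± 13.8 CPM in iREC (adjusted p = 0.0987), and ZNF215 was called lower without iEC F or iREC C (edgeR adjusted p = 0.0401 and 0.0342). TH, TRPM5, TSPAN32 and MRPL23-AS1 stayed under 1 CPM in every library and were not tested.

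**Figure D4:**
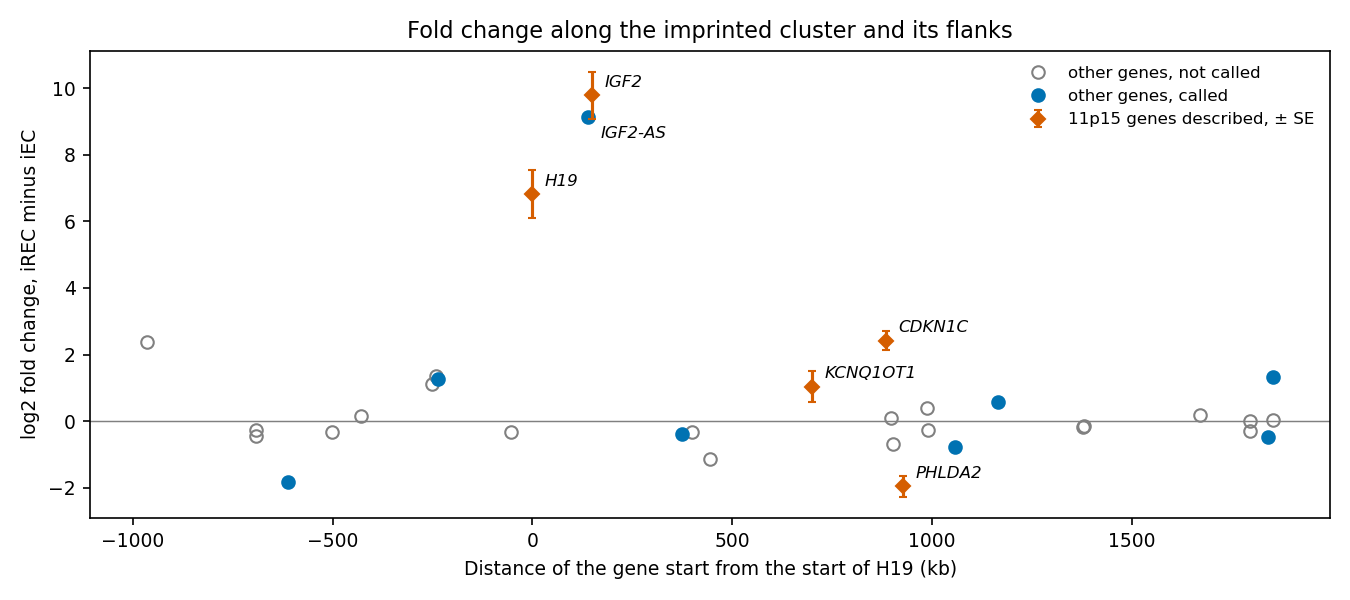
Fitted log2 fold change (iREC minus iEC) against the distance of each gene's start from the start of H19 in kb, for the 5 genes (diamonds, bars of 1 SE) and the 28 tested neighbours (circles, filled where edgeR called them). IGF2, IGF2-AS and H19 stand at 9.79, 9.13 and 6.82, and no other tested gene of the region exceeds CDKN1C at 2.42; the fitted value of IGF2-AS depends on the prior count because its iEC counts are 0.

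The proteins that carry the IGF2 signal were examined next. IGF2 acts through the receptors IGF1R and INSR, is cleared by IGF2R and is held by binding proteins. Of 14 tested genes of that list (15 listed), edgeR called 6 higher and 2 lower, 57.1% beside 25.0% of all genes, with a median log2 difference of 1.44. IGFBP7, a secreted protein of vessel walls, rose from 7.36 ± 4.47 to 290 ± 56.1 CPM (SD, n = 4; log2 difference 5.30 ± 0.41 SE, adjusted p = 5.06e-05 by edgeR). IRS2, a docking protein of both signalling receptors, rose from a mean of 8.0 ± 3.61 to 130.1 ± 26.5 CPM (log2 difference 4.02 ± 0.38 SE, adjusted p = 0.000128 by edgeR). INSR rose from 0.707 ± 0.417 to 3.29 ± 0.935 CPM (edgeR adjusted p = 0.00565). The other genes called higher were IGF1R, IGFBP2 and IRS1, named after their values were seen. IGF1R, the main signalling receptor, rose from 76.7 ± 13.6 to 171 ± 40.9 CPM (edgeR adjusted p = 0.00224). IRS1 had 178 CPM in iREC F against 26.4 to 52.0 CPM in the other iREC libraries; its log2 difference of 2.18 became 1.17 without iREC F (edgeR adjusted p = 0.0213), and it was not called without any 1 of the iEC libraries (0.0604 to 0.0649) or with limma-voom (0.0760).

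IGFBP6, a binding protein that prefers IGF2 over IGF1, fell from 86.8 ± 28.9 to 1.81 ± 0.835 CPM (SD, n = 4; log2 difference -5.58 ± 0.43 SE, adjusted p = 5.40e-05 by edgeR). IGF2R, the clearance receptor, fell from 467 ± 93.9 to 251 ± 91.7 CPM with overlapping groups (edgeR adjusted p = 0.0286). Its call, and with it a lower count of 1, was lost without any 1 of iEC C, D or F or iREC C, D or E (edgeR adjusted p = 0.0505 to 0.0864). The ligand IGF1 was at or under 0.327 CPM in every library and was not tested.

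RNA-binding proteins and microRNA enzymes that act on IGF2 or H19 transcripts formed a further list. Of 11 tested, edgeR called 4 higher and 0 lower (36.4%; 25.0% over all genes). At an unadjusted p under 0.05, 1 was lower, and DESeq2 and limma-voom each called 0 lower. DICER1, which cuts microRNA precursors, rose from 155 ± 29.7 to 407 ± 88.7 CPM (SD, n = 4; log2 difference 1.39 ± 0.20 SE, adjusted p = 0.00107 by edgeR). LIN28A, which blocks let-7 processing, was at 8.45 to 32.4 CPM in iEC, highest in C, and at 20.5, 147, 53.7 and 482 CPM in libraries C, D, E and F of iREC. It was called higher (log2 difference 3.40 ± 0.91 SE, adjusted p = 0.0242 by edgeR) though the groups overlapped and iREC F was far above the rest. Its log2 difference was 2.15 without iREC F (edgeR adjusted p = 0.0393); the gene was no longer called without iEC D, iEC E or iEC F (0.0542, 0.0691 and 0.0615) and with limma-voom (0.0834). LIN28A is itself one of the pluripotent markers. The others, POU5F1, NANOG, SOX2 and DPPA4, were at 0.393, 0, 0.393 and 22.5 CPM in iREC F. DPPA4 was at nearly the same level in iREC E (22.7 CPM) and iREC D (24.7 CPM). IGF2BP2, a binder of IGF2 mRNA, went from 156 ± 20.9 to 221 ± 28.8 CPM (edgeR adjusted p = 0.0288), a call lost without any 1 of iEC C, D or F or iREC C, D or E (up to 0.0863). IGF2BP3 was the remaining called gene, named after its values were seen; it was not called without iEC C, iEC D, iREC C or iREC D (edgeR adjusted p up to 0.0753). The count of genes called higher was 1 without iEC D and 2 without iEC C, iEC F, iREC C or iREC D. ELAVL1, an RNA-binding protein gene named after its values were seen, was at 145 ± 10.9 and 114 ± 15.05 CPM (SD, n = 4; edgeR adjusted p = 0.0659) and was called lower without iEC F or iREC F (0.0497 and 0.0438).

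Among 13 partners and relatives of CDKN1C, all tested, edgeR called 2 higher and 3 lower (38.5%, beside 25.0% of all tested genes, 13.2% higher and 11.7% lower), with a median log2 difference of -0.01. The 3 inhibitors of the CIP/KIP family went different ways. CDKN1B (p27) rose from 25.0 ± 5.56 to 84.4 ± 12.6 CPM (SD, n = 4; log2 difference 1.76 ± 0.19 SE, adjusted p = 0.000266 by edgeR). CDKN1A (p21) fell from 856 ± 344 to 290 ± 47.2 CPM (log2 difference -1.56 ± 0.26 SE, adjusted p = 0.00233 by edgeR). CCND1, cyclin D1, fell from 2407 ± 921 to 253 ± 88.6 CPM (log2 difference -3.25 ± 0.35 SE, adjusted p = 0.000259 by edgeR). CCND3 fell from 116 ± 26.9 to 69.1 ± 12.2 CPM (edgeR adjusted p = 0.0175), a call lost without iREC D or iREC E (0.0598 and 0.0521). CDK6, a partner kinase of cyclin D, was 1.79-fold higher in iREC than its iEC mean of 53.2 ± 7.60 CPM (edgeR adjusted p = 0.0342), a call lost without any single iEC library or without iREC D or E (up to 0.0877). The count of called genes was 3 without iREC D or iREC E. Without iREC F, CCND2 and LIMK1, named after their values were seen, were also called lower (edgeR adjusted p = 0.0171 and 0.0381), for 5 lower in all.

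PHLDA2 has a pair of relatives elsewhere in the genome. PHLDA3, a p53 target, fell from 86.8 ± 24.7 to 48.1 ± 14.9 CPM with overlapping groups (SD, n = 4; edgeR adjusted p = 0.0346), a call lost without iEC E, iEC F, iREC C, iREC D or iREC E (up to 0.101). PHLDA1 was at 216 ± 22.1 CPM in iEC and 170 ± 53.6 CPM in iREC (edgeR adjusted p = 0.273).

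Genes that set or keep imprints were called in 1 of 9 tested cases (11.1%, beside 25.0% of all tested genes; 12 listed), and edgeR, DESeq2 and limma-voom called 0 lower, with 0 lower at an unadjusted p under 0.05. The called gene was EHMT2, a histone methyltransferase (39.8 ± 4.65 to 53.8 ± 2.91 CPM, SD, n = 4; edgeR adjusted p = 0.0280). That call was lost without any 1 library except iEC D and iEC F (up to 0.0730). CTCF, the factor that binds the H19 control region, was at 55.5 ± 10.7 and 59.7 ± 6.83 CPM (log2 difference 0.10 ± 0.16 SE, adjusted p = 0.677 by edgeR). DNMT1, the maintenance methyltransferase, was at 155 ± 53.2 and 160 ± 30.2 CPM (edgeR adjusted p = 0.912). ZFP57, a zinc finger protein that protects imprints, had 0 CPM in all iEC libraries and 0.0611 to 0.721 CPM in iREC, too little to be tested.

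Of 13 tested imprinted genes elsewhere in the genome (17 listed), edgeR called 5 higher and 1 lower (46.2%; 25.0% over all genes), with a median log2 difference of 1.31. DLK1, a Notch-family ligand read from the paternal chromosome, had 3, 1, 0 and 1 counts in iEC C, D, E and F. It rose to 16.2 CPM in iREC C, 248 in D, 280 in E and 224 in F (edgeR adjusted p = 0.000223). Its log2 difference of 11.08 was 11.87 without iEC C, which held 3 of its iEC counts. Like IGF2 and H19, it was lowest in iREC C and highest in iREC E. MEST, an imprinted hydrolase gene, rose from 21.8 ± 9.13 to 467 ± 77.7 CPM (SD, n = 4; log2 difference 4.42 ± 0.32 SE, adjusted p = 3.78e-05 by edgeR). RTL1 rose from 0.451 ± 0.287 to 4.11 ± 2.55 CPM (edgeR adjusted p = 0.00663). GRB10, an adaptor that dampens insulin and IGF receptors, fell from 168 ± 19.8 to 90.8 ± 9.07 CPM (log2 difference -0.89 ± 0.13 SE, adjusted p = 0.00108 by edgeR). NNAT and PLAGL1 were also called higher and were singled out after their values were seen; PLAGL1, a zinc finger regulator of imprinted genes, was at 55.4 ± 27.1 and 305 ± 170 CPM. Without iREC C, SGCE was also called lower (edgeR adjusted p = 0.0465), which made 2. In that fit DCN, near 0 in iEC and not tested with all libraries, was called higher (log2 difference 11.06, edgeR adjusted p = 0.00244). DCN was also called higher without iEC C, iEC D or iEC E (0.0230 to 0.0296). MEG3 was called higher without iEC E or iREC F (0.0433 and 0.0172), and MAGEL2 without iEC D (0.00629). SGCE, DCN, MEG3 and MAGEL2 were named after their values were seen.

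**Figure D5:**
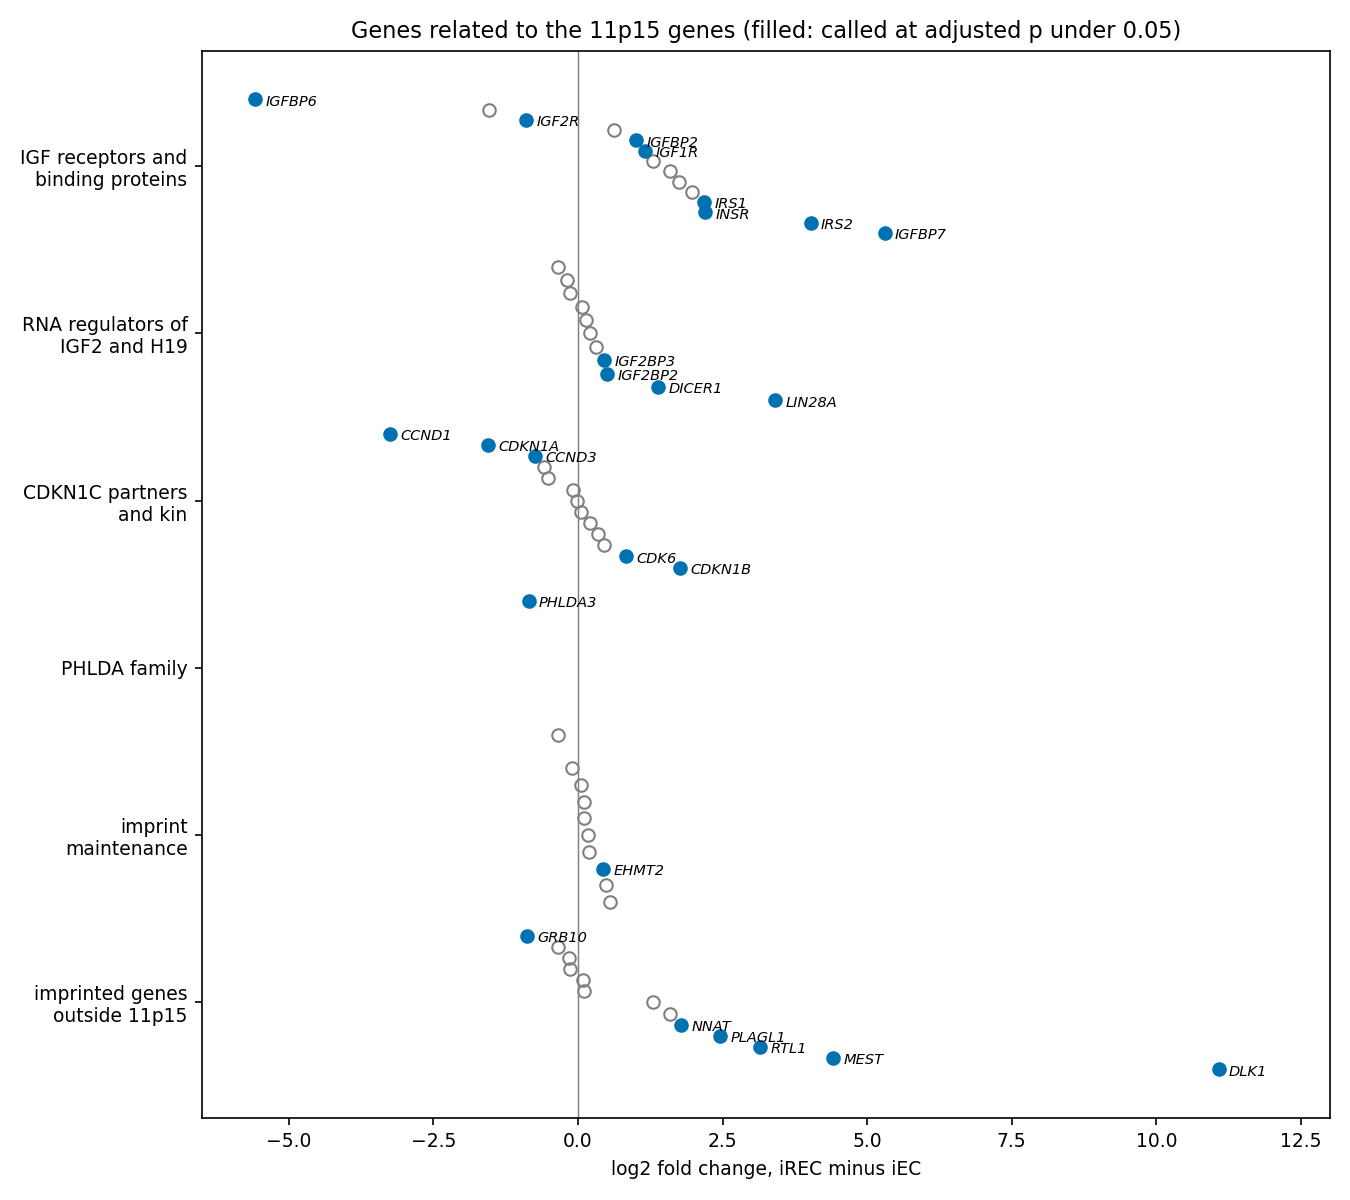
Fitted log2 fold change (iREC minus iEC) of every tested gene in 6 lists of genes related to the 11p15 genes, 1 circle per gene, filled and named where edgeR called it. Called genes lie on both sides of 0 for the IGF, CDKN1C and imprinted lists, between -5.58 for IGFBP6 and 11.08 for DLK1; the DLK1 value rests on 0 to 3 counts per iEC library.

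Genes whose profile over the 8 libraries was most like that of each member were ranked by the root-mean-square difference of mean-centred log2 CPM, over 10253 genes of at least 10 CPM in a group. For IGF2 the closest were ALDH1A1, DLK1 and STAB2 (0.80, 0.84 and 0.91 log2 units). These are genes near 0 in iEC, and 0 of the 3 stayed closest with a prior count of 0.5 in place of 2, so that ranking follows the prior. For H19 they were SLC7A8, PDK4 and TSPAN7 (0.33, 0.44 and 0.49), of which 2 stayed. SLC7A8, an amino acid transporter, was at 0.195, 2.47, 0.296 and 1.07 CPM in iEC C, D, E and F and 53.2, 95.4, 125 and 66.8 CPM in iREC, the order of libraries seen for H19 in iREC.

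For CDKN1C the closest profiles were TFDP2, CCDC8 and KLHL23 (0.20, 0.26 and 0.29 log2 units), and all 3 stayed. TFDP2, a dimer partner of E2F factors, was at 5.24 ± 1.28 and 23.7 ± 5.88 CPM (SD, n = 4). For PHLDA2 they were FOSL1, STK17A and RGS10 (0.13, 0.26 and 0.29), and all 3 stayed. FOSL1, an AP-1 subunit, went from 78.3, 63.3, 119.6 and 88.3 CPM in iEC C, D, E and F to between 13.8 CPM (C) and 28.0 CPM (D) in iREC. Its libraries ranked like those of PHLDA2 in iEC, with E highest and D lowest. For KCNQ1OT1 they were ANKRD36, ZNF431 and ANKRD10-IT1 (0.23, 0.24 and 0.27), all 3 of which stayed. All 3 were lowest in library F of each group, as KCNQ1OT1 was.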

How the data were processed

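RNA was measured in 8 libraries, 4 iEC and 4 iREC, grouped by the titles in the labels. The labels' protocols describe selection of messenger RNA on poly-T beads and second strand synthesis with dUTP. Per the submitters' processing notes, fastp and HISAT2 2.0.5 were used with hg38; the counting program, its strand setting and the annotation are not given in the sources used here. Per the file headers the authors deposited read counts per gene and FPKM. The deposited FPKM equal counts divided by 1 size factor per sample, per kilobase and per 1000000 of a common library size of 15383181. The deposited signal columns are the same normalized counts, and the deposited log2 fold changes, p-values and adjusted p-values come from the authors' own test, unnamed in the header; no result rests on them. All 30386 gene IDs occur in GENCODE release 29, and 30378 have its start and end.

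From the counts, genes were filtered with filterByExpr (15330 kept), scaled by TMM and tested with edgeR 4.0.16 (quasi-likelihood F-test, group as the only term, all 8 libraries, R 4.3.3); p-values were adjusted over all tested genes after Benjamini and Hochberg, and called genes had an adjusted p under 0.05. The test was tried on simulated counts. SE is the fitted coefficient divided by the square root of F; log2 CPM had 2 as its prior count. The detection floor was 3 counts. Floors and intervals cover counting error only, since the labels give no molecular identifiers.

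The members, lists and tests were chosen with earlier results of these data known. Of each list, up to 3 called genes per direction with the largest change and at least 1 CPM in a group were named, any detected gene of the list of imprinted 11p15 genes, and for each member the 3 most similar profiles; other names are marked. The list symbols INS, INS-IGF2, MIR675, ASCL2, KCNQ1DN, DPPA3, PEG3 and ZIM2 and the marker symbols CGB3, ELF5, MYOD1, HBG1, HBG2 and RCVRN were not analysed here. Alternatives were library size only, DESeq2 size factors, no filter, a stricter filter (a group with 1 CPM in all its libraries, and 50 counts on average), DESeq2 1.42.0, limma-voom (limma 3.58.1), the replicate letter as a block, each library left out, and a prior count of 0.5.

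Marker lists for other cells, with the range of summed CPM in iEC and in iREC, were hepatic and endoderm (51.8 to 76.7 and 51.0 to 142, FOXA2 at 0 in iREC), epithelial (391 to 1174 and 302 to 4924), pluripotent (39.0 to 91.0 and 53.3 to 505, NANOG at 0 in iEC), trophoblast (21.3 to 70.5 and 98.4 to 182, VTCN1 at 0 in iEC), blood (24.3 to 46.5 and 15.3 to 18.8, PTPRC and HBE1 at 0 in iEC and SPI1 in iREC) and retinal neuron and pigment epithelium (3.45 to 5.15 and 2.03 to 8.52, RPE65 and PAX6 at 0 in iEC). Their part in the results was not tested.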

Additional observations from a re-analysis of the deposited data

Results flagged for a closer look

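In 8 of 78 groups of 4 libraries examined, 1 library lay apart from the other 3, with a gap to its nearest neighbour that passed Dixon's test, which sets it against the group's whole range; about 3.9 such groups (1 in 20) would be flagged by chance. IGF2-AS was at 0.851 CPM in iREC C, against 5.57 to 6.09 CPM in the other iREC libraries; IGF2, H19 and DLK1 were also lowest in that library. CD81 was at 314.8 CPM in iREC F, against 293.1 to 296.1 CPM. PHLDA3 was at 70.2 CPM in iREC F, against 38.5 to 42.2 CPM. EHMT2 was at 49.5 CPM in iREC D, against 54.8 to 55.5 CPM. GRB10 was at 77.3 CPM in iREC D, against 94.4 to 96.6 CPM. INSR was at 1.33 CPM in iEC D, against 0.455 to 0.573 CPM. MRPL23-AS1 was at 0.244 CPM in iREC E, against 0.0654 to 0.0714 CPM, and TRPM5 at 0.672 CPM in iREC E, against 0.0654 to 0.131 CPM; both are close to the detection floor.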

How the results depend on the processing

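The log2 fold changes of the 5 genes kept their sign and moved by less than the spread between libraries under all 15 alternatives, from 9.44 to 10.33 for IGF2, 6.52 to 7.51 for H19, 2.26 to 2.59 for CDKN1C, -2.24 to -1.79 for PHLDA2 and 0.67 to 1.25 for KCNQ1OT1. The genes called over the whole table numbered 2660 to 4954 (3829 as reported), the lowest without iREC D and the highest with DESeq2. Scaling moved the median of all genes by under 0.1.

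List counts moved more. With the stricter filter the neighbours had 4 calls and the 11p15 list 1; with DESeq2 these were 14 and 5, and imprint maintenance 2; without a filter the RNA regulators had 2. Leaving out single libraries gave 4 to 8 for the neighbours, 1 to 3 for the 11p15 list, 0 to 1 for imprint maintenance, 1 to 5 for the RNA regulators, 3 to 7 for the CDKN1C list and 0 to 1 for the PHLDA family. Besides the losses given with each gene, AC090587.1, OSBPL5, CD81, EHMT2, IGF2BP2 and IGF2BP3 were not called without a filter, AC090587.1 not with DESeq2, and CD81 not with DESeq2 size factors or the stricter filter. The cause was not tested, except that leaving out a library leaves fewer samples and the stricter filter fewer genes.

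With the replicate letter as a block, edgeR called 3334 genes. The neighbours then had 5 calls, the 11p15 list 1, imprint maintenance 0 and the RNA regulators 2; AC090587.1, OSBPL5, CD81, EHMT2, LIN28A, IRS1 and IGF2BP3 lost their calls. Deviations of same-letter libraries correlated at 0.168, -0.0794, 0.0291 and 0.250 for C, D, E and F, and not every library correlated best with its own letter, so the letters were not taken as pairs. Depth limited IGF2 in iEC (1 to 8 counts) and left IGF2-AS with a lower bound.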
